A study of Homo sapiens with 11 samples.

Results

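The mitochondrial ribosomal proteins were followed here at the level of their mRNAs in IMR32 cells, a human neuroblastoma line with amplification of the MYCN oncogene. Members were all genes whose annotated symbol starts with MRPL (large subunit) or MRPS (small subunit) followed by a digit, pseudogenes and antisense transcripts excluded. This gave 75 genes, 48 MRPL and 27 MRPS, out of 19775 genes on the array, measured by 140 of the 54675 probe sets. Each gene was read from its brightest probe set, and all 75 lay above the filter that removed the dimmest 40 percent of genes, so all 75 were among the 11865 genes tested. The rule for the members uses symbols only and no measured value, but it was chosen with earlier results of these data known.

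The mitochondrial ribosome translates the few mRNAs encoded by mitochondrial DNA, all of which specify subunits of the respiratory chain and ATP synthase. Its rRNAs are mitochondrial, but every one of its proteins is encoded in the nucleus, made in the cytosol and imported. Many of them descend from bacterial ribosomal proteins, and others have no bacterial counterpart and were added in the mitochondrial lineage. MYC family transcription factors are known for binding near genes of ribosome production and of mitochondrial function.

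The arrays labelled shMYCN came from IMR32 cells transduced with a lentivirus (pLenti) carrying a short hairpin RNA directed at MYCN, shMYCN#3, and collected after 24, 48 or 72 hours, with 2 arrays (A and B) at each time. The control virus arrays came from cells given the same kind of virus with the control hairpin SHC002, with 1 array at each of 24, 48 and 72 hours. The no virus arrays, 2 in number, came from untransduced cells at 0 hours. All cells are of 1 line and 1 hairpin against MYCN was used, and the labels do not say that A and B were separate cultures, so a p-value here speaks of the spread among arrays, part of which may be technical.

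Signals are linear intensities that the authors scaled to the same average on every array, so a global shift in RNA content is invisible, and less RNA in each cell cannot be told apart from fewer cells that make it. Median signals ranged from 14.9 to 16.7 over the 11 arrays. Across genes, which are not independent of each other, the paired arrays had Pearson r from 0.987 to 0.995. The pair at 48 hours was the least alike, with a standard deviation of 0.21 for its log2 differences over the 75 members, against 0.10 for the pair at 24 hours, 0.12 for the pair at 72 hours and 0.11 for the no virus pair. Among markers of sympathetic neuroblastoma, 8 lay above the dim filter (such as GATA3 at a mean signal of 3260 and ISL1 at 758.9), while TH did not at 6.62. No Schwann or glial marker of 5 passed it, 1 fibroblast marker of 5 did (COL1A1, at 418.6), and 1 leukocyte marker of 5 did (CD79A, at 23.2).

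MYCN mRNA, the target of the hairpin, did not pass the test. Its brightest probe set gave 5488 and 4567 at 24 hours, 5241 and 5317 at 48 hours and 5624 and 4947 at 72 hours on the arrays labelled shMYCN. The readings were 5332, 5390 and 5055 with control virus at 24, 48 and 72 hours, and 5040 and 4507 without virus. The log2 fold change of shMYCN over control virus, averaged over the 3 times, was -0.020 ± 0.08 (SE; limma, adjusted p = 0.866). No fall of this mRNA was therefore measured by its brightest probe set, the only one given here. Every direction in this report belongs to the arrays labelled shMYCN, not to a measured loss of MYCN.

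Over the 3 times together, 19 of the 75 members were lower and 5 were higher on the arrays labelled shMYCN than on the control virus arrays, and 51 did not pass the test (limma, Benjamini-Hochberg adjusted p under 0.05 over 11865 genes). Of all genes tested, 37.9 percent passed, 15.8 percent lower and 22.2 percent higher. Lower members were thus 25.3 percent of the list and higher members 6.67 percent. The median log2 fold change of the members was -0.015, against 0.037 over all genes tested, and the calls came from a minority of the list. Effects were small: among the called members, only 2 (MRPL38 and MRPL45) reached 1.5-fold. Each hour has a single control virus array, so leaving one out also removes its hour and the mean is then over the other 2 times. Over 24 and 48 hours alone 5 members were lower, all of them among the 19 and with smaller folds (such as MRPL38 at -0.62). The other 14, MRPL41 at -0.24 among them, kept their sign without passing. With all 3 times, lower members numbered 11 without shMYCN 24 hours B, 12 without shMYCN 72 hours A and 29 without shMYCN 48 hours B. Higher members numbered 2 over 24 and 48 hours, 3 over 24 and 72 hours and 8 over 48 and 72 hours. With all 3 times they numbered 3 without shMYCN 24 hours A and 11 without shMYCN 48 hours B.

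**Figure D1:**
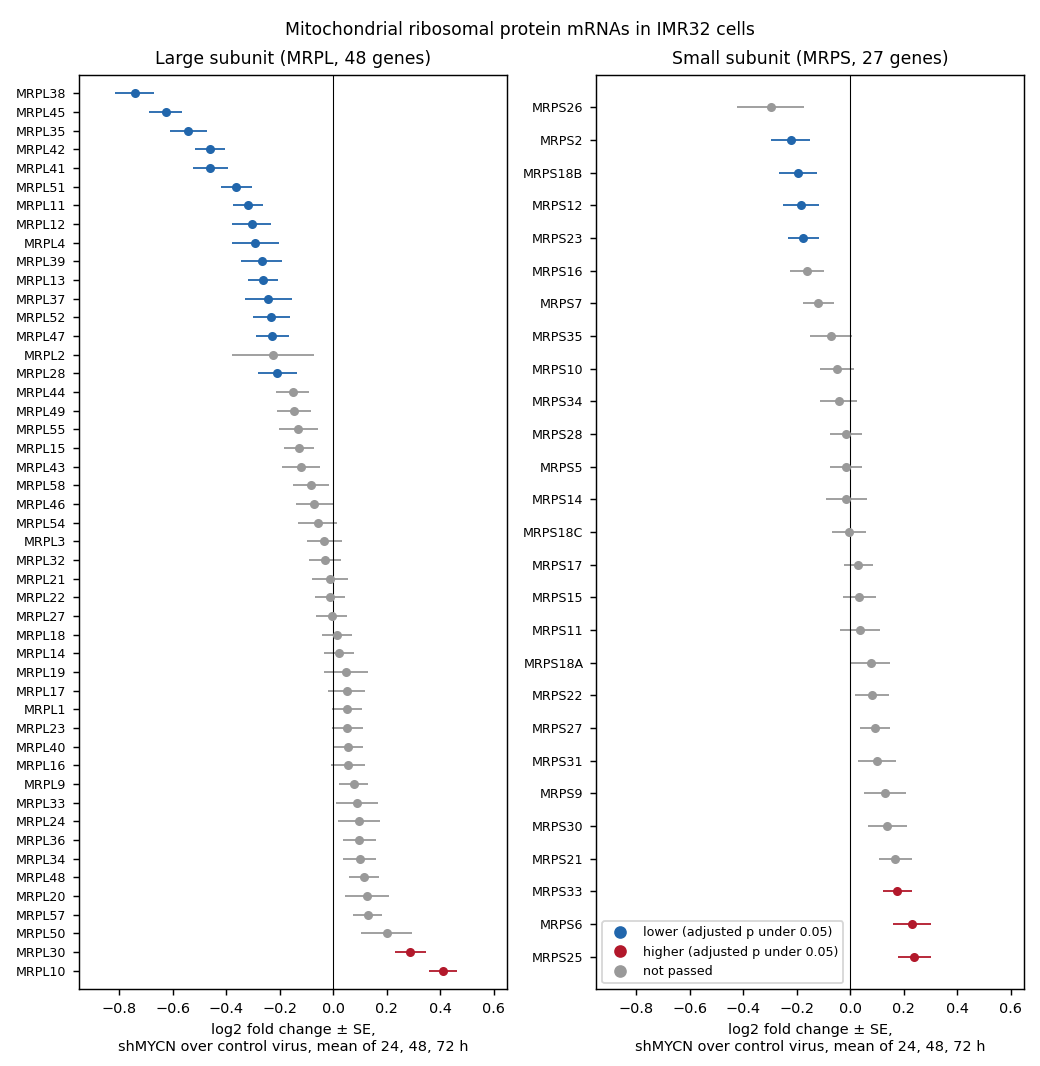
Log2 fold change of shMYCN over control virus, averaged over 24, 48 and 72 hours, for each of the 75 mitochondrial ribosomal protein genes, with large subunit genes in one panel and small subunit genes in the other. Points are the estimates of the fit, bars are standard errors and colours mark the genes that passed the test. MRPL38 at -0.74 and MRPL45 at -0.63 stand at the low end and MRPL10 at 0.41 at the high end, while no small subunit gene lies beyond -0.30 or 0.24.

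In the large subunit 17 of 48 members were called (35.4 percent) and in the small subunit 7 of 27 (25.9 percent), beside 37.9 percent of all genes. Lower members were 31.2 percent of the large and 14.8 percent of the small subunit, beside 15.8 percent of all genes. Of the 48 large subunit members 15 were lower and 2 higher, with a median log2 fold change of -0.046. Of the 27 small subunit members 4 were lower and 3 higher, with a median of -0.0048. The difference between the subunits was not tested. Among the large subunit proteins without a bacterial counterpart, 8 of 19 were lower and none was higher (median -0.15). These 19 were taken by symbol number and include MRPL55 (-0.13, not passed), which belongs to the bacterial L31 family. Among the large subunit proteins of bacterial descent, 7 of 29 were lower and 2 higher (median 0.015). In the small subunit, 3 of 17 members of bacterial descent were lower and 1 higher (median -0.014), and 1 of 10 without a bacterial counterpart was lower and 2 were higher (median 0.087). MRPS18A and MRPS30 are counted here by their symbols with the small subunit, although structures place both proteins in the large one.

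MRPL38, a mitochondria-specific protein of the central protuberance of the large subunit, had the largest fold. Its signal was 586.9 and 576.5 at 24 hours, 336.8 and 420.1 at 48 hours and 313.2 and 337.3 at 72 hours on the arrays labelled shMYCN. It was 687.0, 766.8 and 663.9 at those times on the control virus arrays, and 720.2 and 756.4 on the no virus arrays. All 6 arrays labelled shMYCN lay below all 5 others, and the signals at 48 and 72 hours were the lowest. The log2 fold change was -0.74 ± 0.07 (adjusted p = 1.58e-05), or 1.67-fold lower.

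MRPL45, which sits at the exit of the peptide tunnel and holds the ribosome to the inner membrane, behaved alike. Its signal was 287.0 and 270.2 at 24 hours, 188.8 and 174.2 at 48 hours and 171.5 and 171.0 at 72 hours on the arrays labelled shMYCN. It was 329.9, 306.5 and 342.4 on the control virus arrays, and 360.4 and 348.0 on the no virus arrays. Again the 6 arrays did not overlap the other 5, and the log2 fold change was -0.63 ± 0.06 (adjusted p = 1.9e-05), or 1.54-fold lower.

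A further 2 members, MRPL42 and MRPL35, were below all 5 other arrays on every array labelled shMYCN and lowest at 72 hours. MRPL42, another mitochondria-specific large subunit protein, gave 770.2 and 767.4 at 24 hours, 729.8 and 791.0 at 48 hours and 574.8 and 560.3 at 72 hours on the arrays labelled shMYCN. The control virus arrays gave 936.7, 967.1 and 972.8 and the no virus arrays 918.6 and 955.9 for it. The log2 fold change of MRPL42 was -0.46 ± 0.06 (adjusted p = 7.19e-05). MRPL35, a relative of bacterial L35, gave 254.4 and 245.5, then 206.5 and 226.9, then 155.5 and 159.9 at the 3 times on the arrays labelled shMYCN. It gave 316.2, 302.7 and 296.9 on the control virus arrays and 277.9 and 319.9 on the no virus arrays, with a log2 fold change of -0.54 ± 0.07 (adjusted p = 0.000115).

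MRPL41 and MRPL51, both without a bacterial counterpart, were lowest at 72 hours. MRPL41 gave 680.8 and 715.9 at 24 hours, 530.6 and 598.7 at 48 hours and 330.8 and 370.6 at 72 hours on the arrays labelled shMYCN, against 780.1, 712.0 and 664.3 on the control virus arrays and 705.1 and 764.5 on the no virus arrays. At 24 hours its values overlapped those of the other arrays, and at 72 hours they were far below them. MRPL51 gave 1523 and 1466 at 24 hours, 1197 and 1329 at 48 hours and 961.7 and 942.8 at 72 hours on the arrays labelled shMYCN, against 1618, 1555 and 1531 on the control virus arrays and 1602 and 1518 on the no virus arrays. MRPL51 was below all 3 control virus arrays from 24 hours on, with the largest distance at 72 hours. The log2 fold changes over the 3 times were -0.46 ± 0.07 for MRPL41 (adjusted p = 0.000246) and -0.36 ± 0.06 for MRPL51 (adjusted p = 0.000565).

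MRPL10, MRPL12 and MRPL11, which passed in different directions, belong to the stalk of the large subunit or its base, where translation factors dock. MRPL10, which anchors the stalk, rose on the arrays labelled shMYCN, with 809.3 and 775.8 at 24 hours, 927.5 and 977.8 at 48 hours and 1260 and 1286 at 72 hours. It gave 738.8, 752.6 and 726.3 on the control virus arrays and 742.7 and 747.7 on the no virus arrays, so all 6 arrays were above the other 5 (log2 fold change 0.41 ± 0.05, adjusted p = 0.000137). MRPL12, the mobile stalk protein, fell: 827.6 and 690.0, then 669.5 and 761.1, then 577.7 and 647.3 on the arrays labelled shMYCN, against 899.5, 900.5 and 778.9 on the control virus arrays and 835.1 and 833.2 on the no virus arrays. MRPL11, at the base of the stalk, fell as well: 638.8 and 663.9, then 532.9 and 559.1, then 401.0 and 401.9 on the arrays labelled shMYCN, against 721.8, 689.4 and 566.2 on the control virus arrays and 637.0 and 684.5 on the no virus arrays. Both overlapped the other arrays, and their log2 fold changes were -0.31 ± 0.07 for MRPL12 (adjusted p = 0.00693, not passed over 24 and 48 hours alone) and -0.32 ± 0.06 for MRPL11 (adjusted p = 0.001).

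MRPL30, a relative of bacterial L30, was the other large subunit member that was higher. Its signal was 844.0 and 816.2 at 24 hours, 1020 and 915.0 at 48 hours and 1016 and 1034 at 72 hours on the arrays labelled shMYCN, against 793.3, 727.4 and 774.4 on the control virus arrays and 759.3 and 792.9 on the no virus arrays. All 6 arrays exceeded the other 5 (log2 fold change 0.29 ± 0.06, adjusted p = 0.00229).

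**Figure D2:**
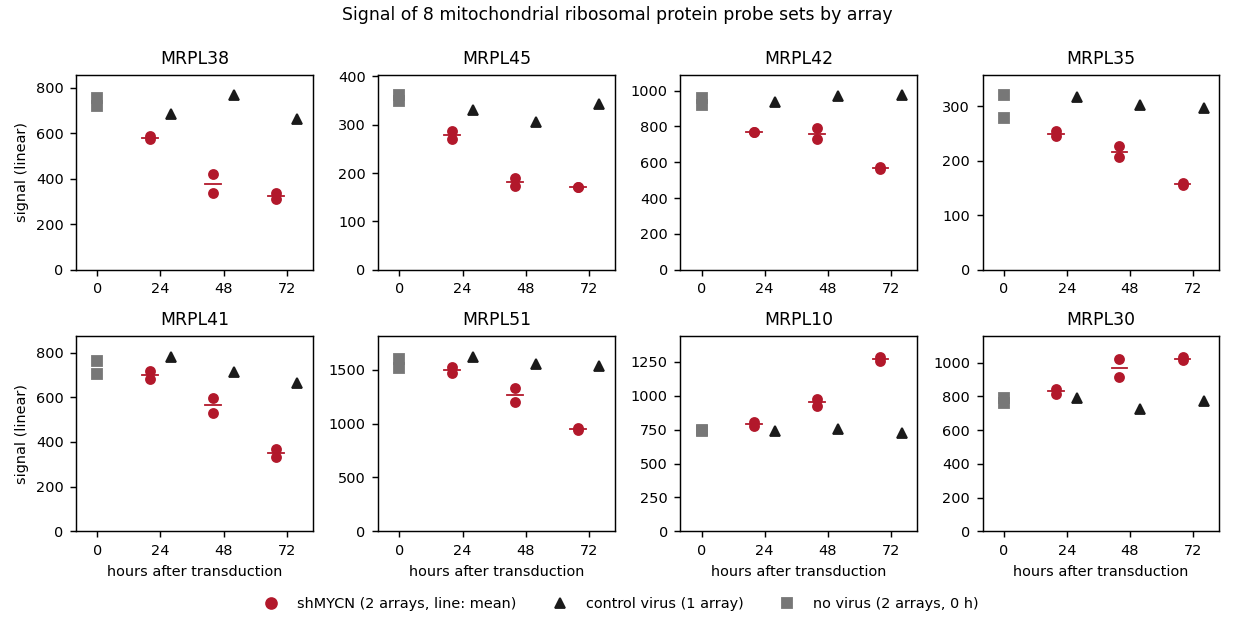
Linear signal on each array against hours for MRPL38, MRPL45, MRPL42, MRPL35, MRPL41, MRPL51, MRPL10 and MRPL30, with circles for the arrays labelled shMYCN (line: mean of 2), triangles for the single control virus arrays and squares for the no virus arrays. The circles of MRPL38 lie between 313.2 and 586.9, below every triangle and square, and those of MRPL10 climb to 1260 and 1286 at 72 hours.

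Among the lower members with smaller folds, MRPL13, MRPL47, MRPL39 and MRPL52 were named by the rule. MRPL13, of the bacterial L13 family, gave 626.8 and 660.1, then 603.5 and 650.1, then 538.2 and 532.7 on the arrays labelled shMYCN, against 744.8, 714.7 and 707.3 on the control virus arrays and 688.9 and 725.6 on the no virus arrays. MRPL47, of the bacterial L29 family, gave 1583 and 1518, then 1579 and 1460, then 1297 and 1141 on the arrays labelled shMYCN, against 1740, 1645 and 1614 on the control virus arrays and 1700.3 and 1699.8 on the no virus arrays. MRPL39, without a bacterial counterpart, gave 591.1 and 492.2, then 602.2 and 502.3, then 491.9 and 463.3 on the arrays labelled shMYCN, against 654.6, 607.1 and 632.2 on the control virus arrays and 619.1 and 660.0 on the no virus arrays. These 3 members did not overlap the other 5 arrays. MRPL52 ranged from 132.8 to 176.7 on the arrays labelled shMYCN and overlapped the others, which ran from 165.7 to 206.1. Their log2 fold changes lay between -0.27 and -0.23. The 7 other lower members, listed to complete the count and outside the naming rule, were MRPL4, MRPL28, MRPL37, MRPS2, MRPS12, MRPS18B and MRPS23, with log2 fold changes from -0.29 to -0.18.

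In the small subunit the 3 higher members were MRPS25 and MRPS33, without a bacterial counterpart, and MRPS6, of the bacterial S6 family. MRPS25 gave 262.1 and 240.1, then 274.1 and 282.7, then 280.7 and 272.3 on the arrays labelled shMYCN, against 221.4, 255.2 and 200.8 on the control virus arrays and 231.5 and 236.3 on the no virus arrays. MRPS6 gave 1232 and 1193, then 1441 and 1358, then 1254 and 1013 on the arrays labelled shMYCN, against 1153, 1047 and 971.9 on the control virus arrays and 1104 and 1056 on the no virus arrays. MRPS33 gave 620.4 and 635.5, then 669.7 and 692.9, then 679.7 and 639.1 on the arrays labelled shMYCN, against 633.6, 545.8 and 561.3 on the control virus arrays and 618.8 and 610.0 on the no virus arrays. All 3 overlapped the other arrays. Their log2 fold changes were 0.24 for MRPS25 (adjusted p = 0.0105), 0.23 for MRPS6 (adjusted p = 0.0233) and 0.17 for MRPS33 (adjusted p = 0.0251), and none of the 3 passed in the mean over 24 and 48 hours, which leaves out the control of 72 hours and so that whole hour.

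The members with the brightest probe sets did not pass. MRPL3 ranged from 2593 to 3145 on the arrays labelled shMYCN and from 2749 to 3019 on the other arrays, with a log2 fold change of -0.033 ± 0.06. MRPS15 (0.034 ± 0.06) and MRPS21 (0.17 ± 0.06, adjusted p = 0.0524) did not pass either. Of the 3 dimmest, MRPL2 (-0.23 ± 0.15) and MRPS18A (0.076 ± 0.07) did not pass, and MRPL52 did. Mean signals of the representative probe sets ran from 130.6 for MRPL2 to 2859 for MRPL3, which are not comparable between probe sets.

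Array by array, 22 of 75 members were below the control virus array of their own hour on all 6 arrays labelled shMYCN, and 6 were above it on all 6. The shares of all genes tested were 14.8 percent below and 21.4 percent above. Against all 3 control virus arrays, 10 were below on all 6 and 2 above, beside 8.29 and 11.7 percent of all genes. Against all 5 other arrays, 8 members were below throughout, a pattern shared by 6.52 percent of all genes, and 2 were above throughout, against 8.42 percent of all genes. The 8 were MRPL13, MRPL35, MRPL38, MRPL39, MRPL42, MRPL44, MRPL45 and MRPL47, and of these MRPL44, named after its values were seen, did not pass the test (log2 fold change -0.15 ± 0.06, adjusted p = 0.0681).

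**Figure D3:**
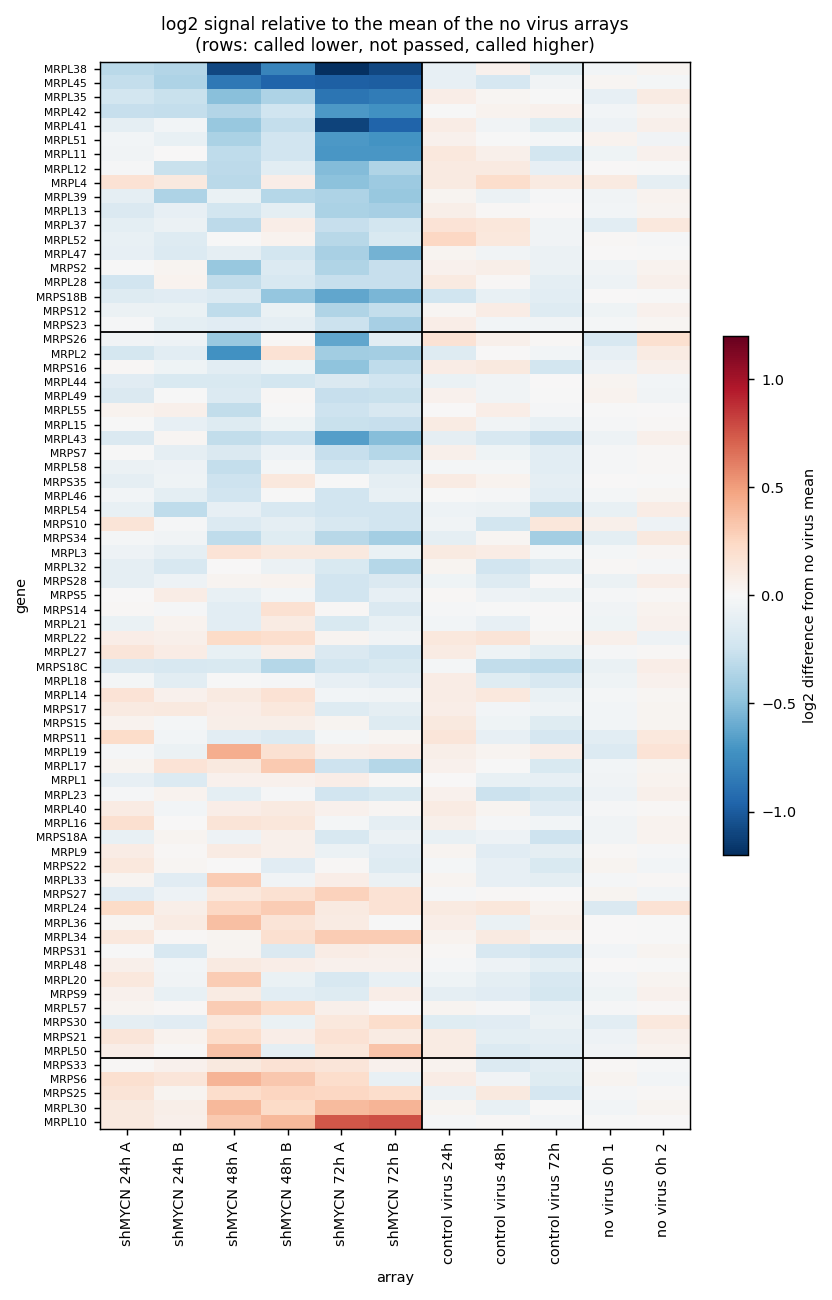
Log2 signal of each of the 75 members on each of the 11 arrays, relative to the mean of the no virus arrays, with the rows ordered as lower, not passed and higher in the comparison over the 3 times. Values in the block of lower members are mostly lowest on the shMYCN arrays of 72 hours, where the median of all members stood at -0.19 (A) and -0.17 (B), against -0.097 on the control virus array of that time.

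The promoters of 4 of these members are printed because their transcripts showed the largest folds down (MRPL38, MRPL45), a late fall (MRPL51) and a rise (MRPL30). Each sequence is 300 bases, 250 before and 50 after the first start listed by RefSeq (GRCh38.p14), written 5′ to 3′ on the strand of the gene. The places are chr17:75904835-75905134 (minus strand) for MRPL38, chr17:38296918-38297217 (plus) for MRPL45, chr12:6493213-6493512 (minus) for MRPL51 and chr2:99180934-99181233 (plus) for MRPL30. Capitals mark matches on either strand to 4 motifs: the E-box CACGTG bound by MYC family proteins, CCGGAAG of the ETS family, GCGCA, any base, then GCGC of NRF1, a regulator of nuclear genes for mitochondrial proteins, and AANATGGCG of YY1.
MRPL38: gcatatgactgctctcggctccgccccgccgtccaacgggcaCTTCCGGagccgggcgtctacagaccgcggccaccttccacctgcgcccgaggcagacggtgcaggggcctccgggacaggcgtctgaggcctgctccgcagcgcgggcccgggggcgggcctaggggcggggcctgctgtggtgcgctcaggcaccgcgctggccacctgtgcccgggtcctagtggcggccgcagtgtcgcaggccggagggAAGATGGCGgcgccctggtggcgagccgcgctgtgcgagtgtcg
MRPL45: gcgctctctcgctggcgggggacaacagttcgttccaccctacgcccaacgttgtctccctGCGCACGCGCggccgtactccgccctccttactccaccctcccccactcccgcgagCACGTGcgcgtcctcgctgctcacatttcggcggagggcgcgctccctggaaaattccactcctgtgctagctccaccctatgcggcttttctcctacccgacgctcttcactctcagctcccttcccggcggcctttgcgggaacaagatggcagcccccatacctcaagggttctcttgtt
MRPL51: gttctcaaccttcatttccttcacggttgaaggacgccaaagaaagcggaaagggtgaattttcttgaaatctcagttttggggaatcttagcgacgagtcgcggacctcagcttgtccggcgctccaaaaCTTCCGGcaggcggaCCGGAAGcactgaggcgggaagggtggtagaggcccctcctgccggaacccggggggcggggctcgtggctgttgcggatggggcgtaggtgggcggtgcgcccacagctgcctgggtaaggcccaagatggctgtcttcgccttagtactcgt
MRPL30: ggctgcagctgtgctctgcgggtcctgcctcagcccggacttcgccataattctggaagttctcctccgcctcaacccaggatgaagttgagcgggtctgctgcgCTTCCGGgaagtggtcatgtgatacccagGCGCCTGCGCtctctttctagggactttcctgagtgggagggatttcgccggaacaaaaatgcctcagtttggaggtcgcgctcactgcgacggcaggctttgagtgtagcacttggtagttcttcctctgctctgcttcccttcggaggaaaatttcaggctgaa

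In MRPL38 the capitals are an ETS match at -208 to -202 from the start and a YY1 match at 7 to 15. In MRPL45 they are an NRF1 match at -189 to -180 and an E-box at -133 to -128. MRPL51 holds a pair of ETS matches, at -119 to -113 and -104 to -98, and MRPL30 holds an ETS match at -145 to -139 and an NRF1 match at -116 to -107. A match is a description of letters and not a bound site, and no binding was measured here.

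Of the 75 members 67 had a promoter entry. The E-box was in 6 of these 67 (8.96 percent), beside 10.7 percent of the promoters of all tested genes with an entry (9698) and 7.43 percent of all 27305 promoters. The ETS motif was in 28 (41.8 percent), beside 19.7 percent of tested genes and 10.7 percent of all promoters. The YY1 motif was in 17 (25.4 percent), beside 7.26 and 3.37 percent, and the NRF1 motif in 8 (11.9 percent), beside 12.4 and 6.28 percent. By the outcome on the arrays, the E-box was in 2 of 17 lower members, none of 4 higher ones and 4 of 46 that did not pass. The ETS motif was in 7 of 17 lower, 2 of 4 higher and 19 of 46 other members, and the YY1 motif in 5 of 17, none of 4 and 12 of 46. The NRF1 motif was in 1 of 17 lower, 2 of 4 higher and 5 of 46 other members. No test was made of these counts.

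At 24 hours no member passed, in either direction, while 0.708 percent of all genes did (0.59 percent lower and 0.118 percent higher). Unadjusted p was under 0.05 for 3 members, all lower (limma): MRPL52 (-0.37 ± 0.12), MRPL35 (-0.32 ± 0.12) and MRPL42 (-0.28 ± 0.10). Of all 11865 genes tested, 1370 had an unadjusted p under 0.05 (limma), 540 of them lower and 830 higher. The smallest adjusted p was 0.247, and the median of the members was -0.053, against 0.027 over all genes.

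At 48 hours 5 members were lower and 4 higher, beside 17 percent called over all genes, 6.9 percent lower and 10.1 percent higher. The lower ones were MRPL38 at -0.997, MRPL45 at -0.71, MRPL35 at -0.46, MRPL42 at -0.34 and MRPL11 at -0.33 on the log2 scale. The higher ones were MRPS6 at 0.41, MRPL30 at 0.40, MRPL10 at 0.33 and MRPS33 at 0.31. Without shMYCN 48 hours B the counts were 17 lower and 11 higher, and they were 3 lower and 1 higher without shMYCN 24 hours A, without shMYCN 24 hours B or without either no virus array, none of which enters the folds of 48 hours themselves. These arrays act through the shared estimate of the spread.

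At 72 hours 14 members were lower and 3 higher, beside 34 percent called over all genes, 15.7 percent lower and 18.3 percent higher. The list's lower share was 18.7 percent, close to that of all genes, and its higher share was 4 percent. The lower members were MRPL38 (-0.995), MRPL45 (-0.94), MRPL41 (-0.89), MRPL35 (-0.85), MRPL42 (-0.76), MRPL51 (-0.68), MRPL4 (-0.58), MRPL11 (-0.48), MRPS18B (-0.46), MRPL47 (-0.40), MRPL39 (-0.39), MRPL13 (-0.39), MRPS10 (-0.35) and MRPS23 (-0.29). The higher ones were MRPL10 (0.80, adjusted p = 7.66e-05), MRPS25 (0.43) and MRPL30 (0.40). All 5 members lower at 48 hours were lower again at 72 hours, and MRPL10 and MRPL30 were higher at both. These hourly comparisons use different arrays, each with a single control array. Without either shMYCN array of 48 hours the higher members at 72 hours numbered 8.

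**Figure D4:**
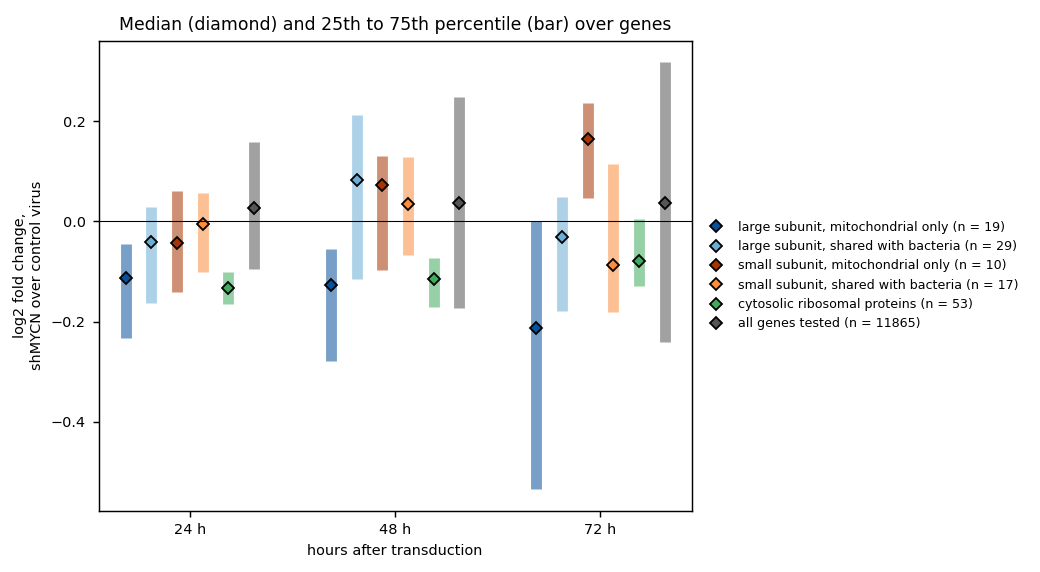
Log2 fold change of shMYCN over control virus at 24, 48 and 72 hours for the 4 classes of mitochondrial ribosomal proteins, for cytosolic ribosomal proteins and for all genes tested, with diamonds at the median over genes and bars from the 25th to the 75th percentile. The large subunit proteins without a bacterial counterpart have the lowest median at 48 and 72 hours, -0.21 at 72 hours. MRPL55, of a bacterial family, is counted among them by its number. All genes tested have medians near 0.03 with wide bars.

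The arrays labelled shMYCN could also be set against each other in time, with no control array. From 24 to 72 hours 23 members were lower at the later time and 4 higher, beside 36.4 percent called over all genes, 18.3 percent lower and 18.1 percent higher, and the median of the members was -0.14 against 0.0075. The control virus arrays stepped down by nearly as much: between those of 72 and 24 hours the median difference of the members was -0.13 and 62 of 75 were below 0, beside 57 of 75 on the arrays labelled shMYCN. The effect of shMYCN against control virus at 72 minus that at 24 hours had a median of -0.0046 over the members, so the fall of the list's median was shared by the control arrays. The members with the largest falls were MRPL41 (-0.96, adjusted p = 2.04e-05), MRPL38 (-0.81), MRPL11 (-0.68, adjusted p = 7.69e-05), MRPL45 (-0.65) and MRPL51 (-0.64). MRPL10 (0.67), MRPS27 (0.32), MRPL30 (0.30) and MRPS30 (0.29) were higher. The single control virus arrays of the same times differed by -0.23 for MRPL41, -0.34 for MRPL11, -0.048 for MRPL38, 0.051 for MRPL45, -0.079 for MRPL51 and -0.024 for MRPL10, so that part of the step of MRPL11 was also present between the controls. Lower members numbered 11 without shMYCN 24 hours A, 15 without shMYCN 24 hours B, 13 without shMYCN 72 hours A and 11 without shMYCN 72 hours B. Higher members numbered 1 without shMYCN 24 hours A or shMYCN 72 hours A, and 2 without shMYCN 24 hours B or shMYCN 72 hours B.

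Whether the effect itself differed between 72 and 24 hours was tested as the difference of both effects. It differed for 6 members, 5 downward and 1 upward, beside 10.3 percent over all genes, 5.82 percent downward and 4.52 percent upward. All 5 that passed downward, MRPL38, MRPL41, MRPL45, MRPL51 and MRPL42, are large subunit proteins without a bacterial counterpart, and the one that passed upward was MRPL10. No member of bacterial descent passed downward, but in the large subunit their differences reached -0.62 and in the small -0.57. Both lie beyond the -0.48 of MRPL42, which passed, and the classes were not compared by a test. The number that passed downward was 0 without shMYCN 72 hours A, 2 without shMYCN 72 hours B, 1 without either shMYCN array of 24 hours, 3 without either no virus array and 10 without either shMYCN array of 48 hours. Upward members numbered 4 without either shMYCN array of 48 hours.

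The 3 control virus arrays were set against the 2 no virus arrays, which differ in virus and in hours (24 to 72 against 0), so that both cannot be told apart. No member passed, beside 0.0337 percent of all genes (0.0253 percent higher and 0.00843 percent lower). An unadjusted p under 0.05 (limma) was found for 1 member, beside 631 of all 11865 genes tested. It was MRPS18C, lower by a log2 fold change of -0.21 and named because it was the only one. Against the no virus arrays, the arrays labelled shMYCN had 14 members lower and 2 higher, beside 30.8 percent called over all genes, 13.1 percent lower and 17.7 percent higher. This comparison shares its shMYCN arrays with the main one and is not independent of it. Lower members numbered 6 without either no virus array and 29 without shMYCN 48 hours B. Higher members numbered 1 without the no virus array of replicate 1, 4 without shMYCN 48 hours A, 6 without shMYCN 48 hours B and 3 without shMYCN 72 hours B.

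Several members have more than 1 probe set, which is a check within the array. Of the 24 called members 14 had others, 26 in number, and 21 of the 26 had the sign of the brightest one. Only 19 of the 26 lay above the dim filter, and 17 of these 19 had that sign. In a limma fit of all 41091 single probe sets, 8 of the 26 passed in the same direction and none in the opposite one. The share of all probe sets that passed in this fit was not counted. Some of the brightest did not pass in it either, such as those of MRPL4 (adjusted p = 0.0744) and MRPL39 (adjusted p = 0.0597). MRPL38's second probe set gave -0.49 but lay under the dim filter, and MRPL35's other probe sets gave -0.27 and -0.36. MRPL41's other probe set above the filter gave -0.48, and those under it gave -0.30, 0.0071 and 0.14. MRPL42 had one other that fell with it (-0.37) and one at 0.036. MRPL30's other probe sets all lay above 0, from 0.086 to 0.38. MRPL45, MRPL51, MRPL11 and MRPL10 rest on 1 probe set each.

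**Figure D5:**
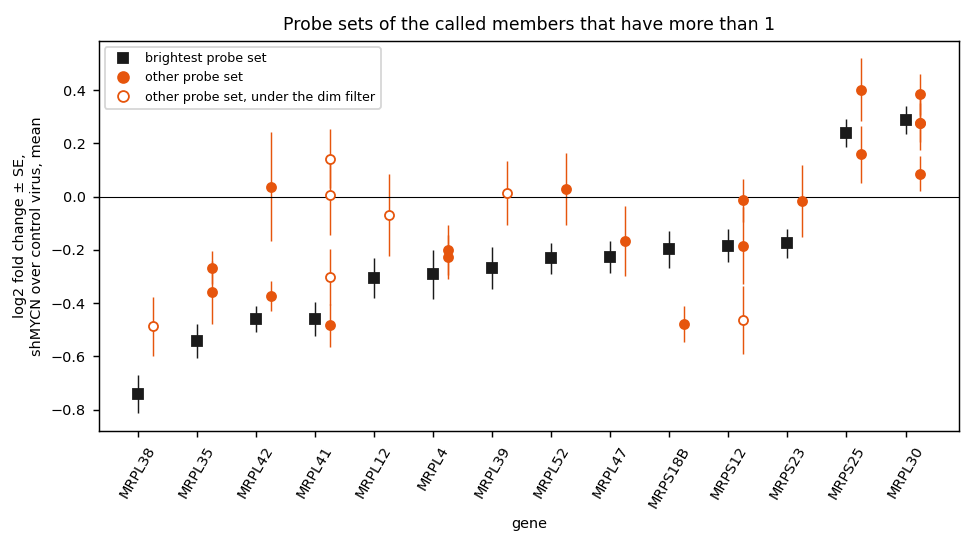
Log2 fold change of shMYCN over control virus, averaged over the 3 times, for every probe set of the 14 called members with more than 1, with squares for the brightest, filled circles for others and open circles for those under the dim filter, and bars for standard errors. Of the 26 circles 21 lie on the side of their square.

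Among the members that did not pass, 39 other probe sets were measured. In the fit of single probe sets, whose share of calls over all probe sets was not counted, 6 of them passed. For MRPL43 and MRPS14 they went against the brightest probe set. One for MRPL43 gave 0.35 (adjusted p = 0.0475) while the brightest gave -0.12, and one for MRPS14 gave 0.35 (adjusted p = 0.00435) while the brightest gave -0.014. For both genes a direction cannot be given, and whether these probe sets read different transcripts was not tested.

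Other genes of mitochondrial translation were taken from fixed lists, which were drawn up with earlier results of these data known. Of 31 tested genes for mitochondrial ribosome assembly and rRNA modification, 5 were higher and 5 lower over the 3 times (median -0.097), or 32.3 percent called, beside 37.9 percent of all genes. MALSU1 and GRSF1 had the largest folds of this list. MALSU1, which keeps the subunits apart during assembly of the large one, gave 711.8 and 690.2 at 24 hours, 479.9 and 405.7 at 48 hours and 306.6 and 294.8 at 72 hours on the arrays labelled shMYCN. It gave 1032, 970.7 and 1001 on the control virus arrays and 1035 and 1088 on the no virus arrays (log2 fold change -1.11 ± 0.06, adjusted p = 3.79e-07). GRSF1, an RNA-binding protein of mitochondrial RNA granules, gave 479.1 and 528.9, then 378.6 and 394.3, then 291.7 and 301.0 on the arrays labelled shMYCN, against 628.6, 653.3 and 643.5 on the control virus arrays and 627.6 and 664.6 on the no virus arrays (-0.71 ± 0.06, adjusted p = 5.56e-06). SLIRP, which stabilises mitochondrial mRNAs, was lower as well (-0.39), as was DDX28 (-0.23), a helicase needed for the large subunit. RMND1 (0.51), which tethers the ribosome near sites of mRNA maturation, METTL15 (0.51), a methyltransferase of the small rRNA, YBEY (0.40), an endoribonuclease, and RPUSD3 (0.31) were higher. The others that passed, named to complete the counts, were PUSL1 (-0.25) and NOA1 (0.19).

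Of 13 tested mitochondrial translation factors 4 were higher and 1 lower (median 0.029), or 38.5 percent called, close to the share of all genes. MTFMT, which formylates the initiator methionyl-tRNA, was the lower one, with 57.2 and 62.1 at 24 hours, 47.1 and 46.8 at 48 hours and 32.1 and 29.3 at 72 hours on the arrays labelled shMYCN, against 106.5, 94.6 and 98.1 on the control virus arrays and 99.8 and 115.4 on the no virus arrays (-0.93 ± 0.09, adjusted p = 1.23e-05). The higher ones were OXA1L (0.34), the insertase of the inner membrane, the initiation factor MTIF3 (0.30), the elongation factor GUF1 (0.19) and the recycling factor MRRF (0.19). Of 4 tested ribosome members with other symbols (DAP3, PTCD3, CHCHD1 and GADD45GIP1) none passed, from -0.14 to 0.023, with 1 at an unadjusted p under 0.05 (limma). Of 53 cytosolic ribosomal proteins 1 was lower (RPL35A, -0.21, adjusted p = 0.0388) and none higher, with a median of -0.11. Beside 5595 of all 11865 genes tested, 6 of these 53 had an unadjusted p under 0.05 (limma). Their sign turned with the comparison: the median was 0.038 for shMYCN against no virus, with 42 of 53 above 0, and 0.14 for control virus against no virus, with 51 of 53 above 0.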

How the data were processed

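The 11 arrays are one-colour Affymetrix expression arrays. Each value in the table the authors deposited is a linear intensity of a probe set. MAS5 and GCOS are the programs listed in the submitters' processing notes, without versions. On every array the trimmed mean of the middle 96 percent of values equals 100, which shows global scaling. How background was corrected, which probe sets were called present and the build behind the array are not given in the sources used here. With so few arrays, precision is limited throughout.

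Symbols come from the platform annotation, which gave several symbols for 1801 of 54675 probe sets and none used here for 11777. Manufacturer controls (62) were removed. Left out as members were 3 probe sets that name a member beside another gene, 1 that names the pseudogene MRPS31P5 beside another gene, and 2 for MRPL20-AS1 and MRPL45P2. Every gene was represented by its brightest probe set by mean log2 signal, and the 40 percent of genes with a mean under 14.8 were dropped. The scale was log2(signal + 16), which understates folds at low signal.

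A limma model (version 3.58.1, R 4.3.3, lmFit and contrasts.fit, moderated by eBayes with a trend) estimated a mean for each of 7 groups, with 4 residual and 7.35 prior degrees of freedom. Two-sided p-values were adjusted by Benjamini and Hochberg over 11865 genes and read at 0.05, and ± after a log2 fold change is its standard error. Only the 4 groups that have 2 arrays inform the spread, which was then applied to the lone control virus arrays too. Lists got no test of their own. The procedure was tested on simulated data. Proteins were classed by their bacterial families from general knowledge (symbols numbered to MRPL36 and MRPS21, with MRPL47 and MRPS28). By its number MRPL55 stayed with those without a bacterial counterpart, although it belongs to a bacterial family. Motifs were searched with Python 3.11.15 in RefSeq promoters (GRCh38.p14).

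Named members were the 12 of smallest p in each direction over the 3 times, up to 4 in each direction in every other comparison, the 3 brightest and 3 dimmest, and those with a probe set that passed against the brightest one. From each list of other genes up to 4 in each direction were named. The members, the lists and the comparisons were chosen with earlier results of these data known. The letters A and B were not used as pairs in the main fit. The A minus B differences correlated at -0.0508 (24 and 48 hours), 0.0377 (24 and 72 hours) and 0.1 (48 and 72 hours). Low correlations do not show that the arrays of a letter were unrelated. Alternative settings covered the offset (1 or 64), the normalization (quantile or median), the dim filter (none or 60 percent), the choice of probe set (mean, or each separately), updated symbols, a variance without trend, the letter as a block, a threshold of 0.01 and the removal of single arrays.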

Additional observations from a re-analysis of the deposited data

Results flagged for a closer look

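For 6 members the effect of shMYCN against control virus differed between 72 and 24 hours by a test of the difference itself (limma, over all genes tested), and each is given because of that test. They were 8 percent of the list, below the 10.3 percent of all genes tested that passed the same test. How many passed downward depended on single arrays, as given above. On the log2 scale the difference was -0.76 for MRPL38 (adjusted p = 0.0206), -0.74 for MRPL41 (adjusted p = 0.0155), -0.70 for MRPL45 (adjusted p = 0.0153), -0.56 for MRPL51 (adjusted p = 0.0301) and -0.48 for MRPL42 (adjusted p = 0.0444). It was 0.70 for MRPL10 (adjusted p = 0.00819). At both times a single control array stands behind these differences.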

How the results depend on the processing

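MRPL38, MRPL45, MRPL42, MRPL35, MRPL11, MRPL10 and MRPL30 passed in the same direction under all 23 alternatives, while MRPS6 failed under 8, MRPS33 under 10 and MRPL52 under 6. For shMYCN against control virus over the 3 times (19 lower, 5 higher), lower members numbered 12 with no filter, 11 as single probe sets and 9 at a threshold of 0.01, and higher members 8 with quantile normalization, 3 with median scaling, 3 without trend and 2 at 0.01. At 48 hours (5 lower, 4 higher), lower members numbered 8 with median scaling, 2 as single probe sets, 3 without trend and 2 at 0.01. Higher members there numbered 7 with quantile normalization, 1 with median scaling, 2 with no filter, 2 with the mean of probe sets, 0 as single probe sets, 1 without trend and 0 at 0.01. At 72 hours (14 lower, 3 higher), 8 were lower at 0.01 and 6 higher with quantile normalization. For shMYCN at 72 against 24 hours (23 lower, 4 higher), 13 were lower and 2 higher at 0.01. The effect at 72 against 24 hours (5 downward) gave 2 with no filter, 2 with the mean of probe sets, 1 as single probe sets, 2 without trend and 0 at 0.01. Against no virus (14 lower, 2 higher), 8 were lower and 1 higher at 0.01. The median of the members (-0.015) was -0.0036 with quantile normalization and -0.055 with median scaling, under which all genes were 18.8 percent lower and 17.9 percent higher.

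Leaving out 1 array at a time gave 5 to 29 lower and 2 to 11 higher over the 3 times, 3 to 17 and 1 to 11 at 48 hours, 10 to 19 and 3 to 8 at 72 hours, 11 to 27 and 1 to 6 for 72 against 24 hours, 0 to 10 downward and 1 to 4 upward for the difference of effects, 6 to 29 and 1 to 6 against no virus, and medians from -0.048 to -0.0039. Without a control virus array the mean over the 3 times becomes that over the other 2, and comparisons of its own time could not be made. Signs turned for members that did not pass: MRPL3 was 0.035 with quantile normalization and from -0.074 to 0.046 with 1 array left out, the highest without the control virus array of 24 hours. MRPS15 was -0.0056 with median scaling and from -0.013 to 0.10 with 1 array left out, the lowest without the control virus array of 48 hours, and MRPS18A was -0.050 with the mean of probe sets. MRPS14 was 0.17 with the mean of probe sets and from -0.065 to 0.036 with 1 array left out, among them 0.023 without the control virus array of 72 hours, 0.036 without shMYCN 48 hours A and 0.017 without shMYCN 72 hours B. With the letter as a replicate block, 20 members were lower and 6 higher over the 3 times, 7 lower at 48 hours and 15 lower at 72 hours. The causes were not tested.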
